A study of Bos taurus with 8 samples.

Results

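The Hippo effector genes considered here are the coactivators *YAP1* and *WWTR1* (the gene of TAZ), the transcription factors *TEAD1* to *TEAD4*, the TEAD-binding cofactors *VGLL2*, *VGLL3* and *VGLL4*, and the kinase *LATS2*. They were chosen by name, as a list of 10 genes. Of these, 9 were measured among the 18339 genes tested, and *VGLL2* was not analysed here. RNA was compared between 4 preadipocyte clones from intramuscular fat (IMF1 to IMF4) and 4 from subcutaneous fat (SF1 to SF4) of adult Angus-cross steers. Each clone grew from 1 cell of the stromal vascular fraction (SVF), the cells left after adipocytes are removed from digested fat. No treatment distinguished the groups. These clones are no random sample of the preadipocytes in either fat. Fast growth, strong fat formation and a fibroblast-like shape decided the study's choice among a larger number of clones. The study's methods place RNA collection before confluence, whereas the deposited design places it after adipogenic induction. By the study's account, each clone came from an SVF sample isolated on its own. The number of steers differs between the study and the deposited labels, and which clones share a steer is not stated. The p-values measure the spread between these clones. Gene counts summed to 19654917 to 29308882 per IMF clone (median 20424420, n = 4) and to 19979899 to 24868233 per SF clone (median 20758710, n = 4).

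In the Hippo pathway, the MST kinases (genes *STK3* and *STK4*) activate the LATS kinases, which phosphorylate YAP and TAZ and keep them out of the nucleus. When this brake is off, YAP and TAZ enter the nucleus and bind TEAD proteins, which contact DNA at the MCAT element found in many growth and muscle genes. VGLL proteins bind the same TEAD partners in place of YAP and TAZ. In cultured mesenchymal cells TAZ restrains the adipogenic regulator PPARG, and in muscle YAP is known for sustaining satellite cell growth. RNA levels do not measure the phosphorylation or location of these proteins.

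*TEAD2* was the only member of the group that differed between IMF and SF clones by at least 2-fold, and it was higher in IMF. The coactivators moved in opposite directions by less than that, *WWTR1* being higher and *YAP1* lower in IMF. Smaller differences of *TEAD4* and *VGLL4* were toward IMF. Genes are called past the threshold where edgeR's quasi-likelihood test gave a p-value of under 0.05 after adjustment and a log2 fold change (IMF over SF) of at least 1 in size. Of the 9 members, 1 was past it, against 8.82% of all genes tested (4.78% higher and 4.04% lower in IMF). An adjusted p-value under 0.05, whatever the fold change, was found for 5 of the 9 members, against 25.8% of all genes. Without IMF3 or without SF3, the number was 3. The groups did not overlap in 4 members, against 32.1% of all genes. The median log2 fold change was 0.026 over the 9 members and -0.032 over all genes. In bulk RNA, fewer cells expressing a gene and less RNA of it per cell cannot be told apart.

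The preadipocyte label of the clones was compared with defining markers. The preadipocyte markers *PDGFRA* and *PDGFRB* were measured in all 8 clones, whereas *CD34* had at most 2 counts in an SF clone, and *PPARG* had 22 to 36 counts in an IMF clone and 50 to 96 in an SF clone. *DLK1*, a preadipocyte surface protein, was counted 66, 0, 4 and 38 times in IMF1 to IMF4 and 22, 6, 16 and 12 times in SF1 to SF4, and was thus at or near 0 in IMF2 and IMF3. Of 11 preadipocyte genes, 1 was past the threshold higher in IMF (*CD34*) and 2 lower (*THY1* and *PPARG*), against 4.78% and 4.04% of all genes, and *ITGB1* was the most abundant. The *THY1* call was kept in 6 of 15 alternatives: the adjusted p was 0.0524 with limma-voom, 0.0517 with total counts alone and 0.0698 to 0.082 without any 1 of the IMF clones or SF2, and the log2 fold change was -0.88 without SF1. Markers of other cell types differed between the groups as well. Of 11 satellite cell and myoblast genes, 10 were past the threshold higher in IMF, and *SDC4* was higher by less (log2 fold change 0.77, adjusted p = 0.0154, edgeR). The share of all genes past the threshold in that direction was 4.78%. Their summed level was 948, 911, 958 and 859 CPM in IMF1 to IMF4 and 100.3, 92.9, 57.3 and 149 CPM in SF1 to SF4, and *MYOD1*, *MYOG*, *CHRNA1* and *MYMX* had 0 counts in every SF clone. *ITGA7* had the highest CPM averaged over the 8 clones, with a mean of 268 in the IMF clones. In SF1 to SF4 it was measured at 0.0513, 0.15, 2.35 and 8.71 CPM, so that its SF level lay mostly in SF4. In the SF clones the means of *NCAM1* (43.0 CPM) and *SDC4* (40.6 CPM) were above all 4 of these values. In counts scaled by gene length (TPM), *MYOD1* was above *ITGA7* in IMF, at a mean of 145 TPM against 95.5 TPM. CPM is a gene's count scaled to the TMM-normalized library size of its clone.

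Of 14 endothelial genes, 12 were past the threshold higher in IMF by edgeR's test, against 4.78% of all genes, the others being *CLDN5* (log2 fold change 0.24) and *FLT1* (-0.77, adjusted p = 0.108). Their sum was 249.9, 269, 263 and 304 CPM in IMF1 to IMF4 and 82.3, 51.0, 44.9 and 64.4 CPM in SF1 to SF4. *KDR* and *EMCN* had 0 counts in every SF clone, and *NOS3*, the endothelial nitric oxide synthase, had 539 to 875 counts in IMF clones and at most 2 in an SF clone. *CLDN5* had the highest CPM averaged over the 8 clones (36.9 in IMF and 31.2 in SF), whereas in IMF alone *CDH5* (53.9 CPM) and *EGFL7* (40.6 CPM) were above it. Of 9 pericyte and smooth muscle genes, 2 were higher (*MYH11* and *MCAM*) and 4 lower (*ACTA2*, *TAGLN*, *CNN1* and *CSPG4*) in IMF, against 4.78% and 4.04% of all genes. Their sum was 2559, 2563, 2417 and 2334 CPM in the IMF clones and 11231, 4092, 3346 and 7278 CPM in the SF clones. *ACTA2* had the highest CPM averaged over the 8 clones, but *TAGLN* was above it in each IMF clone and in SF3. Without IMF3, 3 of the 9 were past the threshold. The log2 fold change of *TAGLN* was -0.81 without SF1 and -0.93 with total counts alone, short of the threshold in both.

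Of 12 leukocyte genes, *CD14* was past the threshold higher and *CD3E* lower in IMF, against 4.78% and 4.04% of all genes, and the list's median log2 fold change was -0.64. Their sum was 57.9, 39.3, 33.7 and 66.6 CPM in IMF1 to IMF4 and 115, 73.8, 67.1 and 113 CPM in SF1 to SF4, so that the groups nearly met at IMF4 and SF3. *PTPRC*, the leukocyte antigen CD45, had the highest CPM of the list averaged over the 8 clones. It had 19.2, 1.90, 7.12 and 10.5 CPM in IMF1 to IMF4 and 49.6, 27.0, 24.8 and 31.7 CPM in SF1 to SF4. In IMF2, *CD3E* (7.13 CPM) and *CD14* (6.67 CPM) were above it, as was *CD3E* (13.9 CPM) in IMF4. For *PTPRC*, every IMF clone was below every SF clone, with a log2 fold change of -1.79 and an adjusted p of 0.0518 in edgeR's test. That p was under 0.05 in 5 of 15 alternatives, among them 0.00905 with DESeq2, 0.0184 with limma-voom, 0.0217 without IMF1 and 0.037 without IMF2. In edgeR's test it was 0.128 without IMF3, 0.104 without SF1 and 0.0599 with total counts alone. The leukocyte count of 2 was 5 with DESeq2 and with limma-voom, 4 without IMF4, 3 without SF3 and 1 without IMF3, SF1 or SF2. The *CD3E* call was lost without any 1 of IMF1, IMF2, IMF3, SF1, SF2 or SF4 (adjusted p from 0.0507 to 0.103).

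In each of the remaining lists 1 gene was past the threshold, higher in IMF, against 4.78% of all genes. Of 8 adipocyte genes listed, 4 were tested, and *ADIPOQ*, *LEP*, *LPL* and *PLIN4* were not analysed here. Among the 4 tested the called gene was *FABP4*, which also had the highest CPM averaged over the 8 clones. The list summed to 16.4 ± 1.30 CPM in IMF clones and 9.28 ± 1.87 CPM in SF clones (SD for 4 clones each). The mean of *FABP4* was 9.63 CPM in IMF clones but 0.178 CPM in SF clones, where it was not the most abundant. Among 5 mesothelial and epithelial genes tested, of 9 listed, the gene past the threshold was *CDH1*. That list, mostly *KRT19*, summed to 656 ± 327 CPM in IMF clones, with 1144 CPM in IMF3, and to 611 ± 128 CPM in SF clones. Among 4 Schwann cell genes tested, of 6 listed, it was *ERBB3*, and *S100B* had the highest CPM averaged over the 8 clones. Their sum was 9.61 ± 2.56 CPM in IMF clones and 7.49 ± 2.05 CPM in SF clones. The part of these cell type differences in the values of the Hippo effectors was not tested.

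**Figure D1:**
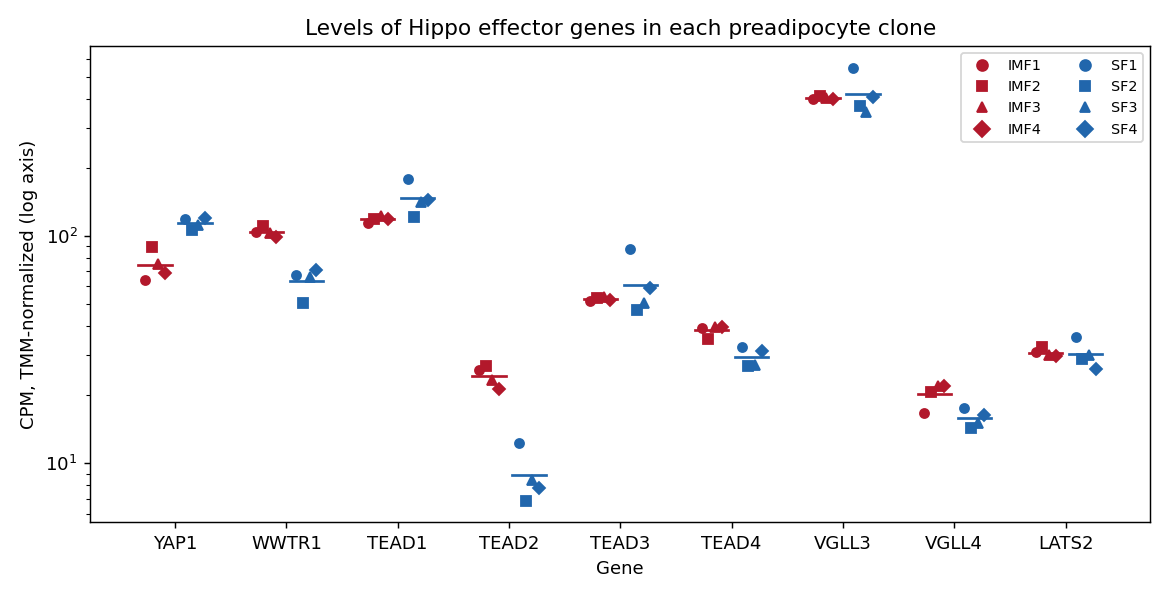
The plot shows TMM-normalized CPM on a log axis for each of the 9 members, with 1 point per clone (IMF in red, SF in blue, shapes for clone numbers) and a line at each group mean. *TEAD2* and *WWTR1* lie higher in all 4 IMF clones than in any SF clone, and *YAP1* lies lower. SF1 is the highest SF clone in 7 of the 9 genes, a count not made over all genes.

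All 9 measured members were well above the detection floor. Counts ranged from 137 (*TEAD2* in SF2) to 12594 (*VGLL3* in IMF2), and counting error alone is 8.54% at the lowest of these. The spread between clones was larger in SF. The coefficient of variation of CPM had a median of 4.70% over the 9 members in IMF (from 1.37% to 14.9%) and 14.1% in SF (from 5.85% to 30.3%), and was higher in SF for 7 of them. Over the 7379 genes at least as abundant as the least abundant member, the medians were 5.74% and 12.4%, and 77.9% of genes varied more in SF. SF1 had the highest level of the SF clones in 7 of the 9 members, and SF2 the lowest in 7. The same count was not made over all genes, so it cannot be called particular to the members.

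Levels of different genes were compared in TPM, a count divided by the deposited gene length and scaled to the same total in each clone. In IMF, *VGLL3* was the most abundant at 60.9 ± 4.17 TPM (SD, n = 4), followed by *WWTR1* at 36.3 ± 2.84, *TEAD3* at 30.2 ± 2.34 and *YAP1* at 25.004 ± 3.22 TPM. *TEAD1* and *TEAD2* followed at 18.6 ± 1.48 and 18.6 ± 2.41 TPM, then *TEAD4* at 9.26 ± 1.03, *LATS2* at 8.19 ± 0.558 and *VGLL4* at 3.14 ± 0.377 TPM. Clone ranges of neighbours in this order overlapped for *WWTR1* and *TEAD3*, *TEAD3* and *YAP1*, *TEAD1* and *TEAD2*, and *TEAD4* and *LATS2*. In SF, *VGLL3* was again the most abundant at 62.5 ± 12.4 TPM, but *YAP1* came next at 38.0 ± 1.78, before *TEAD3* at 34.2 ± 9.67, *TEAD1* at 22.6 ± 3.31 and *WWTR1* at 21.8 ± 2.13 TPM. *LATS2* (7.96 ± 1.37), *TEAD4* (6.92 ± 0.444) and *TEAD2* (6.69 ± 1.74 TPM) had overlapping ranges in SF, as did *YAP1* and *TEAD3*, and *TEAD1* and *WWTR1*. Among all genes tested, the TPM percentile of *VGLL3* was 91.98 in IMF clones and 92.4 in SF clones, and that of *TEAD2* was 76.3 and 54.2.

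The coactivators YAP and TAZ bind TEAD through related domains and are both held in check by the LATS kinases. *WWTR1* (ARS-UCD2.0, chromosome 1, 118496458 to 118645507) had 104, 110.5, 103 and 98.7 CPM in IMF1 to IMF4 and 67.5, 50.5, 66.2 and 70.6 CPM in SF1 to SF4. Every IMF clone was above every SF clone, and the lowest level was in SF2. The log2 fold change of *WWTR1* was 0.71 (standard error 0.11, 95% interval 0.46 to 0.96, adjusted p = 0.00224, edgeR's quasi-likelihood test), a 1.63-fold difference.

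*YAP1* (chromosome 15, 6499364 to 6634778) had 64.0, 89.5, 74.9 and 68.9 CPM in IMF1 to IMF4 and 119, 106, 112 and 120.1 CPM in SF1 to SF4. Here every IMF clone was below every SF clone, IMF2 lying closest to them. For *YAP1*, the log2 fold change was -0.62 (standard error 0.11, 95% interval -0.87 to -0.37, adjusted p = 0.0045, edgeR). Neither coactivator reached the fold-change threshold, and both kept an adjusted p under 0.05 in all 15 alternative settings.

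The ratio of *WWTR1* to *YAP1* in TPM was 1.68, 1.28, 1.419 and 1.48 in the IMF clones and 0.585, 0.493, 0.611 and 0.608 in the SF clones. *WWTR1* was thus the more abundant coactivator transcript in each IMF clone and *YAP1* in each SF clone. *WWTR1* made up 59.3% ± 2.73 of the sum of both in IMF and 36.4% ± 2.31 in SF (SD, n = 4 each). The sum itself was 61.3 ± 5.20 TPM in IMF and 59.8 ± 3.11 TPM in SF, a difference smaller than the spread between clones. Ratios and sums over members are descriptions and were not tested.

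TEAD proteins are the DNA-binding partners of YAP, TAZ and VGLL proteins, and the 4 paralogs share the MCAT element as their site. *TEAD2* (chromosome 18, 55815643 to 55841617), a paralog known for expression early in the mouse embryo, had 25.9, 26.7, 23.2 and 21.1 CPM in IMF1 to IMF4 and 12.3, 6.86, 8.48 and 7.82 CPM in SF1 to SF4. The groups did not overlap, and SF1 stood above the other SF clones. Its log2 fold change was 1.45 (standard error 0.18, 95% interval 1.04 to 1.86, adjusted p = 0.000766, edgeR), a 2.74-fold higher level in IMF. It stayed past the threshold in all 15 alternatives, with log2 fold changes from 1.35 to 1.65.

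*TEAD4* (chromosome 5, 106768119 to 106834851), which is expressed in differentiating myoblasts, had 39.2, 35.3, 39.9 and 40.0 CPM in IMF1 to IMF4 and 32.5, 26.7, 27.2 and 31.3 CPM in SF1 to SF4. The groups were separate, though IMF2 and SF1 lay close to each other. The log2 fold change was 0.39 (standard error 0.088, adjusted p = 0.0128, edgeR), under the fold-change threshold, and the adjusted p was 0.0635 without IMF3 and 0.0514 without SF3.

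*TEAD1* (chromosome 15, 39740865 to 40015346), a broadly expressed paralog that activates muscle genes through MCAT elements, had 114, 118, 123 and 119 CPM in IMF1 to IMF4 and 178, 121, 142 and 144 CPM in SF1 to SF4. The groups overlapped at SF2. Its log2 fold change of -0.30 (95% interval -0.56 to -0.043, adjusted p = 0.0867, edgeR) did not pass. The adjusted p was under 0.05 in 2 of 15 alternatives, at 0.0444 with DESeq2 and 0.0293 without SF2. With total counts alone the log2 fold change of *TEAD1* was -0.153 (adjusted p = 0.414, edgeR), and without SF1 it was -0.196. *TEAD3* (chromosome 23, 9433297 to 9456466) had 51.8, 53.5, 54.0 and 52.1 CPM in IMF1 to IMF4 and 88.0, 47.0, 50.8 and 58.8 CPM in SF1 to SF4. The IMF clones were nearly level and SF1 was above all others. *TEAD3* had a log2 fold change of -0.21 (95% interval -0.63 to 0.21, adjusted p = 0.443, edgeR) and 0.016 without SF1, so its direction rested on that clone.

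As a share of the summed TPM of the 4 paralogs, *TEAD2* held 25.9%, 26.3%, 23.0% and 21.8% in IMF1 to IMF4 and 9.87%, 9.14%, 10.1% and 8.61% in SF1 to SF4. *TEAD3* held the largest share in every clone, 39.4% ± 0.676 in IMF and 48.2% ± 3.25 in SF (SD, n = 4 each). *TEAD1* held 24.3% ± 0.885 in IMF and 32.4% ± 2.24 in SF, and *TEAD4* 12.1% ± 0.887 and 10.0% ± 1.31. The summed TEAD level was 76.7 ± 6.24 TPM in IMF and 70.5 ± 14.9 TPM in SF, which differed by less than the spread of the SF clones.

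**Figure D2:**
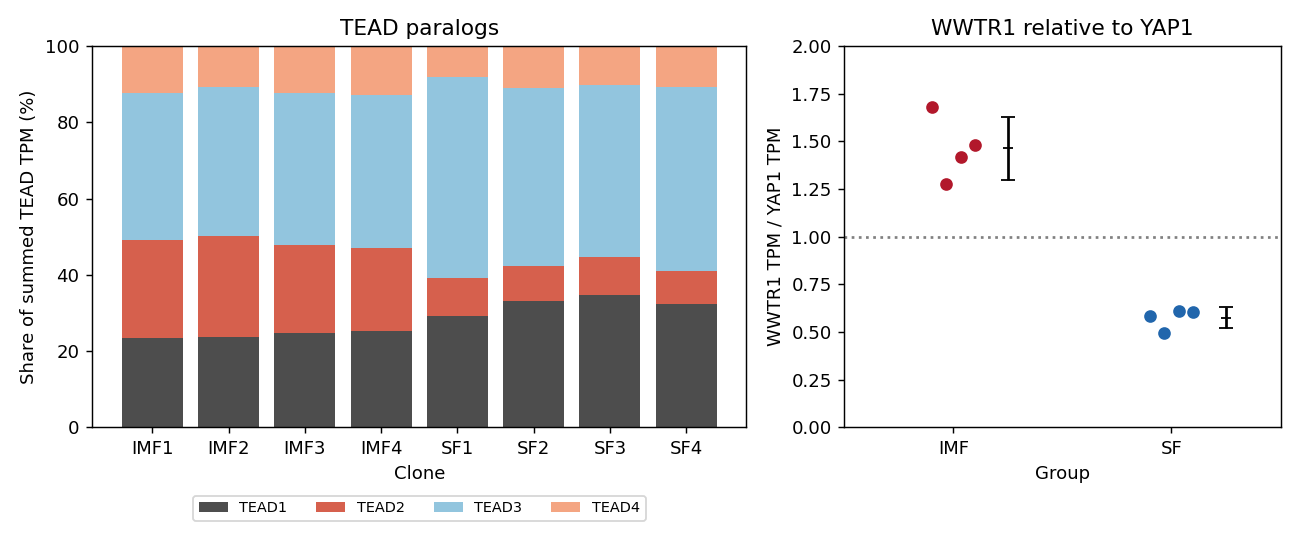
The left panel stacks the share of each TEAD paralog in the summed TEAD TPM of every clone, and the right panel plots the ratio of *WWTR1* to *YAP1* TPM in each clone with the mean and SD beside it (n = 4 each, dotted line at equal levels). The *TEAD2* band is 21.8% to 26.3% in IMF clones and 8.61% to 10.1% in SF clones, and the ratio lies above 1 in every IMF clone and below 1 in every SF clone.

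VGLL proteins lack a DNA-binding domain and act by binding TEAD. *VGLL3* (chromosome 1, 35064262 to 35123294), which inhibits adipocyte differentiation in cultured mouse preadipocytes, had 402, 412, 403 and 399 CPM in IMF1 to IMF4 and 551, 375, 352 and 410.0 CPM in SF1 to SF4. The IMF clones fell within the range of the SF clones, whose spread was set by SF1. The log2 fold change of *VGLL3* was -0.063 (95% interval -0.39 to 0.26, adjusted p = 0.787, edgeR), and it turned to 0.091 without SF1 and to 0.088 with scaling by total counts alone. *VGLL3* was measured at 0.794 ± 0.0112 of the summed TEAD TPM in IMF and 0.890 ± 0.0654 in SF (SD, n = 4 each). *VGLL4* (chromosome 22, 55578946 to 55735447), a broadly expressed cofactor that represses YAP-dependent transcription, had 16.7, 20.6, 21.8 and 21.8 CPM in IMF1 to IMF4 and 17.6, 14.3, 15.0 and 16.3 CPM in SF1 to SF4. IMF1 lay below SF1, so that the groups overlapped. Its difference of 0.36 on the log2 scale (standard error 0.11, adjusted p = 0.0448, edgeR) kept an adjusted p under 0.05 in 5 of 15 alternatives. It was lost without any 1 of IMF2, IMF3, IMF4, SF2, SF3 or SF4 (adjusted p from 0.0777 to 0.155), with RLE size factors (0.0505), without the filter (0.0655) and with at least 10 counts in 4 clones (0.0577).

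*LATS2* (chromosome 12, 35649270 to 35700350) encodes a kinase that phosphorylates YAP and TAZ and is itself a transcriptional target of YAP. It had 30.8, 32.4, 29.9 and 29.6 CPM in IMF1 to IMF4 and 35.9, 28.6, 29.9 and 26.0 CPM in SF1 to SF4. The highest and the lowest level were both in SF clones, and the IMF clones lay between them. The log2 fold change of *LATS2* was 0.026 (95% interval -0.21 to 0.26, adjusted p = 0.882, edgeR).

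The other kinases and adaptors of the pathway differed mostly by less than 2-fold. Of 23 such genes tested, *LATS2* included, *WWC2* was the only one past the threshold, against 8.82% of all genes, and 2 were without SF2 or SF3. An adjusted p under 0.05 was found for 12, of which 4 were higher and 8 lower in IMF, against 14.4% and 11.4% of all genes. The higher number was 2 without any 1 of the IMF clones or without SF4, and the lower number was 3 without IMF1 or IMF4 and 4 without IMF2 or IMF3. *WWC2*, an adaptor related to KIBRA that brings LATS to its activators, had 175, 182, 182 and 176 CPM in IMF1 to IMF4 and 466, 319, 543 and 317 CPM in SF1 to SF4. The IMF clones were nearly equal and all lay below the SF clones. The difference was -1.20 on the log2 scale (standard error 0.18, adjusted p = 0.00196, edgeR).

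Its paralogs *WWC1* (-0.93, adjusted p = 0.0267, edgeR) and *WWC3* (-0.66, adjusted p = 0.0286) also had lower levels in IMF, under the fold-change threshold. Among the 4 genes higher in IMF were *STK3* (log2 fold change 0.38, adjusted p = 0.0137, edgeR) and *MOB1B* (0.45, adjusted p = 0.0065), an MST kinase and a LATS coactivator. The 8 lower genes also included *NF2* (-0.43, adjusted p = 0.0388, edgeR) and *STK38* (-0.47, adjusted p = 0.00121). *LATS1*, *STK4* and *MOB1A* did not pass, with log2 fold changes of -0.10, -0.091 and -0.078. The genes of this paragraph were chosen for naming after their values had been seen. The median log2 fold change over the 23 genes was -0.10.

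Among upstream regulators at the cell surface and cell junctions, 7 of 31 genes tested were past the threshold, 3 higher and 4 lower in IMF, against 4.78% and 4.04% of all genes. The giant protocadherins, which signal to the Hippo kinases from the cell surface, went in different directions. *FAT1* (chromosome 27, 16420184 to 16546113) had 473, 482, 522 and 529 CPM in IMF1 to IMF4 and 963, 1141, 1119.8 and 1256 CPM in SF1 to SF4. All IMF clones lay below all SF clones, and the log2 fold change was -1.16 (standard error 0.11, adjusted p = 0.000178, edgeR). *FAT4*, a receptor for DCHS1, was also lower, with a mean CPM of 38.5 ± 2.00 in the IMF clones and of 139 ± 40.0 in the SF clones (SD for 4 clones each, log2 fold change -1.85, adjusted p = 0.000235). *FAT3* was counted 35, 63, 45 and 41 times in IMF1 to IMF4 and 0 times in every SF clone, at least 13.1-fold higher against a floor of 3 counts per SF clone. Its level was low even in IMF, with a mean of 0.145 TPM against 47.4 TPM for *FAT1* and 3.25 TPM for *FAT4*.

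*DCHS1*, the FAT4 ligand, had 17.4 ± 1.35 CPM in IMF and 17.1, 75.5, 48.2 and 29.8 CPM in SF1 to SF4. SF1 was level with the IMF clones, and the call (log2 fold change -1.30, adjusted p = 0.0415, edgeR) was lost without any 1 of the IMF clones, SF2 or SF3 (adjusted p of up to 0.0942), with limma-voom (0.0853) and with total counts alone (0.064), and was kept in 6 of 15 alternatives. *FJX1*, which encodes the relative of a fly kinase that modifies Fat and Dachsous and is also a YAP target, was higher in IMF at 33.7, 31.4, 32.9 and 31.6 CPM against 4.05, 7.61, 5.52 and 10.0 CPM in SF. The groups were far apart, by 2.25 on the log2 scale (standard error 0.25, adjusted p = 0.0004, edgeR).

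Parts of the STRIPAK complex, a phosphatase complex that removes the activating phosphates of the MST kinases, differed in both directions. *STRIP2* was higher in IMF (4.44 ± 0.379 against 0.418 ± 0.269 CPM, log2 fold change 3.37, adjusted p = 0.000879, edgeR). *SLMAP* was lower (51.6 ± 3.03 against 110.1 ± 33.9 CPM, SD, n = 4 each, log2 fold change -1.09, adjusted p = 0.00541), and fell short of the fold-change threshold without SF1 (-0.93) or SF4 (-0.99) and with total counts alone (-0.93). An adjusted p under 0.05 was found for 5 upstream genes higher and 9 lower in IMF (14.4% and 11.4% of all genes), for 8 higher without SF1 and for 3 lower with total counts alone. The median log2 fold change over the 31 genes was -0.19.

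Known targets of YAP, TAZ and TEAD were split in direction, *CCN1*, *ANKRD1* and *CRIM1* being lower in IMF and *FJX1*, *EDN1* and *CAVIN2* higher. Of 30 listed targets tested, 13 had an adjusted p under 0.05, 4 of them higher and 9 lower in IMF, against 14.4% and 11.4% of all genes tested. The median log2 fold change over the 30 genes was -0.28. The number lower was 4 without IMF1 and 5 with total counts alone. Past the threshold were *EDN1*, *CAVIN2* and *FJX1* (higher) and *ANKRD1* and *CRIM1* (lower), 5 of the 30 against 8.82% of all genes. The list includes *LATS2* and *TEAD1* themselves.

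*CCN1*, listed in the table as *CYR61* and encoding a secreted matricellular protein that is a standard readout of YAP, had 462, 480.3, 465 and 436 CPM in IMF1 to IMF4 and 986, 655, 638 and 797 CPM in SF1 to SF4. All IMF clones lay below all SF clones. Its log2 fold change was -0.74 (standard error 0.15, adjusted p = 0.00738, edgeR), under the fold-change threshold. *CCN2*, the gene of connective tissue growth factor, was counted 95, 4, 63 and 42 times in IMF1 to IMF4 and 50, 99, 366 and 183 times in SF1 to SF4, and the groups overlapped. For *CCN2* the log2 fold change was -1.78 with a standard error of 0.84 (adjusted p = 0.159, edgeR).

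*ANKRD1*, a nuclear and sarcomeric ankyrin repeat protein, had 292, 308, 289 and 264 CPM in IMF1 to IMF4 and 1469, 305, 546 and 1049 CPM in SF1 to SF4. SF2 lay within the IMF range and SF1 was highest. For *ANKRD1* the log2 fold change was -1.55 (standard error 0.43, adjusted p = 0.029, edgeR), and the call was lost without any 1 of the IMF clones, SF1 or SF4, with an adjusted p of up to 0.0734 in those fits, and was kept in 8 of 15 alternatives. *CRIM1*, a membrane protein that binds BMPs, had 281, 286, 279 and 282 CPM in IMF1 to IMF4 and 1246, 527, 518 and 691 CPM in SF1 to SF4, which did not overlap. Its log2 fold change was -1.40 (standard error 0.27, adjusted p = 0.00692, edgeR). The clones with the highest *ANKRD1* and *CRIM1*, SF1 and SF4, also had the highest summed pericyte and smooth muscle markers (11231 and 7278 CPM). Most of these sums was *ACTA2* (6491 and 3976 CPM) and *TAGLN* (3573 and 2494 CPM). *ACTA2* is also among the muscle genes with MCAT elements listed here, and *MYH11* and *MCAM* of the marker list were higher in IMF. The part of these markers in the values of *ANKRD1* and *CRIM1* was not tested.

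The targets higher in IMF included genes that endothelial cells express strongly. *EDN1*, which encodes endothelin-1, a vasoconstrictor peptide of endothelial cells, had 535, 1013, 690 and 649 counts in IMF1 to IMF4 and 6, 0, 2 and 0 counts in SF1 to SF4 (adjusted p = 1.9e-05, edgeR). Its fitted log2 fold change was 8.20, and 9.665 without SF1. *CAVIN2*, a coat protein of caveolae, had 22.2, 21.9, 21.0 and 21.2 CPM in IMF1 to IMF4 and 0.719, 0.35, 0.325 and 0.386 CPM in SF1 to SF4 (5.60 on the log2 scale, standard error 0.22, adjusted p = 2.89e-06, edgeR). Both were low in all SF clones, where the endothelial marker *CDH5* had 3 or 4 counts, against 1086 to 1693 in the IMF clones. The part of the endothelial genes in these values was not tested.

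**Figure D3:**
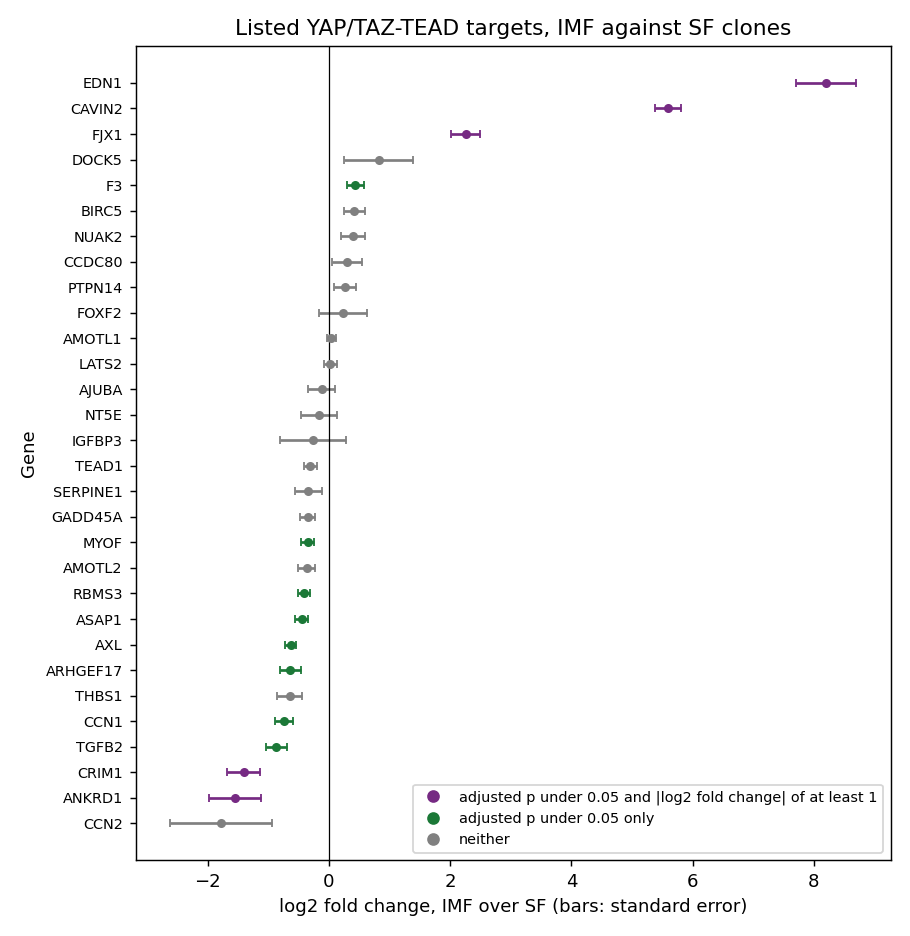
The plot shows the log2 fold change of IMF over SF clones for the 30 listed targets, ordered by value, with bars for the standard error (edgeR, n = 4 clones per group). *EDN1*, *CAVIN2* and *FJX1* lie at 8.20 (9.665 without SF1), 5.60 and 2.25, *CRIM1* and *ANKRD1* at -1.40 and -1.55, and the remaining genes with an adjusted p under 0.05 lie between -0.86 and 0.44.

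Of 11 muscle genes tested that have known MCAT elements, at which TEAD proteins bind, 10 were past the threshold higher and 1 lower in IMF, against 4.78% and 4.04% of all genes. The list was drawn up with the muscle genes of these clones already known to be higher, so its direction is not independent evidence. *TNNT2*, cardiac troponin T and the gene in which the MCAT element was described, had 686, 891, 583 and 516 counts in IMF1 to IMF4 and 0, 1, 2 and 0 in SF1 to SF4 (adjusted p = 2.89e-06, edgeR). The sarcomeric actins *ACTC1* and *ACTA1* had 3219 to 5426 and 1687 to 3310 counts in IMF clones, and at most 9 and 3 in an SF clone. *CHRNB1*, a subunit of the muscle acetylcholine receptor named here after its values were seen, was measurable in both groups, with 147 to 259 counts in IMF clones and 43 to 77 in SF clones (log2 fold change 1.62, adjusted p = 0.000413, edgeR). The gene lower in IMF was *ACTA2*, smooth muscle actin, with a mean CPM of 1058 ± 56.8 in the IMF clones and of 3401 ± 2386 in the SF clones (SD for 4 clones each, log2 fold change -1.68, adjusted p = 0.0333). That call was lost without any 1 of the IMF clones, SF1 or SF4, with an adjusted p of up to 0.0814 in those fits, and with limma-voom (0.0505), and was kept in 7 of 15 alternatives.

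None of 20 other TEAD cofactors and partners tested, *VGLL3* and *VGLL4* included, was past the threshold in edgeR's test, against 8.82% of all genes. DESeq2 and limma-voom also called 0, and 1 was called without SF2. Of the 20, 4 were higher and 4 lower in IMF at an adjusted p under 0.05, against 14.4% and 11.4% of all genes. An unadjusted p under 0.05 was found for 11 of the 20, against 6959 of the 18339 genes tested. Among them were *JUNB*, a subunit of the AP-1 factor that occupies many enhancers together with TEAD (log2 fold change 0.68, adjusted p = 0.0011, edgeR), and *FOSL2*, another AP-1 subunit (-0.62, adjusted p = 0.0105). Both were named after their values were seen. The median log2 fold change over the 20 genes was -0.063.

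*TEAD2* was compared with every other gene tested for likeness of pattern, as the root mean square difference between log2 CPM values centred on their mean over the 8 clones. The nearest gene was *STX3*, a syntaxin of vesicle fusion, at 0.110 log2 units, but it was measured at only 1.62 CPM in IMF and 0.596 CPM in SF. *HOXA9*, a homeobox factor of body position, followed at 0.127, with 24.5, 23.5, 23.0 and 23.1 CPM in IMF1 to IMF4 and 11.2, 5.96, 7.22 and 6.34 CPM in SF1 to SF4. Like *TEAD2*, it was highest in SF1 and lowest in SF2 among the SF clones. *SOD2*, the mitochondrial superoxide dismutase, lay at 0.158, *FAM213A* at 0.178 and *XRCC2*, a recombination repair protein, at 0.192. The measure places genes by the same 8 libraries that gave the difference between groups, and it is a description with no test.

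Over all genes tested, 877 were past the threshold higher and 741 lower in IMF. With counts scaled by their total alone, without TMM factors, 1078 were higher and 539 lower, and the all-gene median log2 fold change shifted from -0.032 to 0.12. Under that scaling the log2 fold changes of *YAP1*, *WWTR1* and *TEAD2* were -0.47, 0.86 and 1.60, each with an adjusted p under 0.05 in edgeR's test.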

How the data were processed

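RNA-seq of 8 clones was analysed, grouped by the clone names in the labels. The authors deposited whole-number read counts per gene, not normalized, and a gene length used here for TPM. The study's methods name HISAT2 and a non-stranded kit, whereas the submitters' processing notes name STAR 2.7.11a, with Trimmomatic 0.39 and featureCounts 2.0.2, and the labels describe a strand-marking protocol, so overlapping genes may share reads. The deposited group means and DESeq2 columns (fold changes and p-values) were not used. The row without a gene name held 0.0148% to 0.0209% of counts and was left out.

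The test was run in edgeR 4.0.16 (R 4.3.3) on genes whose counts summed to 20 or more (TMM, two-sided quasi-likelihood test, Benjamini-Hochberg over 18339 genes). The 532 genes under that total were not tested. The script was tested on simulated counts. Folds against clones all at 0 used 3 counts per clone, and such floors and count errors cover counting error only. Coordinates are from RefSeq (ARS-UCD2.0, the study's build), which held 14201 gene IDs by symbol and 220 by synonym.

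Members and lists were chosen with earlier results of these data known. Genes named were all members, *CCN1*, *CCN2* and *ANKRD1*, up to 5 per direction in each pathway list past the threshold with the highest mean CPM, the most abundant (mean CPM over 8 clones) and up to 3 called genes of each cell type list, and the 5 genes most like a called member. Others were named after their values were seen. Alternatives were DESeq2 1.42.0, limma-voom (limma 3.58.1), RLE size factors, total counts alone, no filter, at least 10 counts in 4 clones, a block for the clone number, and omission of each clone in turn. Promoter motifs and protein sequences were not analysed here. Tables and figures were made in Python 3.11.15.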

Additional observations from a re-analysis of the deposited data

Results flagged for a closer look

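In 4 of 98 groups of 4 clones, 1 clone lay far from the others by Dixon's criterion, where chance gives about 1 in 20 groups (4.9 of 98). *TEAD4* was 35.3 CPM in IMF2, against 39.2 to 40.0 CPM in the other IMF clones. *FAT4* was 198 CPM in SF1, against 115 to 128 CPM in the other SF clones. *CAVIN2* was 0.719 CPM in SF1, against 0.325 to 0.386 CPM in the other SF clones. *KRT19*, an epithelial keratin, was 1118 CPM in IMF3, against 425 to 509.8 CPM in the other IMF clones. Whether anything but chance sets these clones apart was not tested.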

How the results depend on the processing

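*TEAD2* stayed past the threshold, and *YAP1* and *WWTR1* kept an adjusted p under 0.05, in all 15 alternatives. With total counts alone, *VGLL3* turned to 0.088 (log2), and the genes lower in IMF at an adjusted p under 0.05 were 5 targets, 4 kinases and adaptors and 3 upstream regulators. *LATS2* turned to -0.007 without the filter and -0.004 with at least 10 counts in 4 clones, and *KRT19* to -0.028 with limma-voom. Leaving out 1 clone gave log2 fold changes from -0.324 to 0.016 for *TEAD3*, -0.173 to 0.091 for *VGLL3*, -0.037 to 0.121 for *LATS2* and -0.387 to 0.224 for *KRT19*. It gave 3 to 5 members, 4 to 12 targets lower, 2 to 4 kinases and adaptors higher and 3 to 8 lower, and 4 to 8 upstream regulators higher at an adjusted p under 0.05, and 1 to 2 kinases and adaptors and 0 to 1 other cofactors past the threshold. The leukocyte list had 5 genes past the threshold with DESeq2 and limma-voom, against 2. The cause was not tested.

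Whether equal clone numbers mark a shared steer is not stated. Same-numbered clones' deviations from their group means correlated at 0.057, 0.014, 0.058 and 0.216, and others at -0.143 to 0.171. The highest value, 0.216, was between IMF4 and SF4. So few pairs cannot settle whether the numbers pair the samples. With the replicate block, 1489 genes were past the threshold (1618 without), 4 members had an adjusted p under 0.05, as had 5 targets lower, 2 kinases and adaptors higher and 5 lower, 5 leukocyte genes were past the threshold, and *KRT19* turned to -0.043. The block also gave adjusted p-values of 0.1 for *DCHS1*, 0.0833 for *ANKRD1*, 0.0889 for *ACTA2*, 0.0563 for *THY1* and 0.112 for *VGLL4*, which were then not under 0.05, and of 0.0263 for *PTPRC*, which was.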
